A study of Mus musculus with 2 samples.

Results

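MHC class I molecules display peptides made inside the cell, and 10 mouse genes for these molecules, for the transport and loading of their peptides and for their transcription were followed in T cells made to differentiate with an HDAC6 inhibitor. They were chosen by symbol: H2-K1, H2-D1 and H2-T23 (heavy chains), B2m (light chain), Tap1 and Tap2 (peptide transporter), Tapbp and Tapbpl (peptide editors), Erap1 (peptide trimming) and Nlrc5 (transcriptional activator). All 10 were found among the 23282 rows of the deposited tables, and all 10 passed a filter of at least 10 reads in at least 1 library, as did 12164 rows in total. The rule names symbols and no threshold, though it was set with earlier results of these data known. The comparison asks how the RNA of these genes differs after 1 day of differentiation with the inhibitor.

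Naïve CD4+ T cells from the spleens of wild-type female C57BL/6 mice, 7 to 10 weeks old, were activated through CD3 and CD28 and cultured for 1 day with TGF-β1, IL-2 and antibodies that block IFN-γ and IL-4, which makes induced regulatory T (iTreg) cells. The control culture received DMSO, the solvent. The other culture received 10 μM Tubastatin A (TSA), an inhibitor of the tubulin deacetylase HDAC6, which is not the pan-HDAC inhibitor Trichostatin A. The paper reports that TSA raised tubulin acetylation strongly and histone H3 acetylation slightly. It adds that inhibitors at high concentrations may act on other HDACs too. Each condition gave 1 library, so no difference below has a replicate check, and an effect of TSA cannot be told apart from a difference between 2 cultures or 2 library preparations. In bulk RNA, fewer cells that express a gene and less of its RNA per cell cannot be told apart either.

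A class I molecule consists of a heavy chain, the light chain β2-microglobulin and a short peptide. Peptides are cut by the proteasome, carried into the endoplasmic reticulum by the TAP transporter and trimmed there, and tapasin holds the empty heavy chain next to the transporter until a peptide fits. All nucleated cells make class I molecules, and T cells make many of them. NLRC5 drives transcription of the class I genes through factors bound to their promoters, and interferons raise the whole pathway.

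The promoter stretches of both classical heavy chain genes and of the light chain gene are shown because these 3 genes make up the molecule and rank among the 4 members with the most reads. Each is the 200 bases before the transcription start in RefSeq (GRCm38.p6), written 5′ to 3′ on the strand of the gene, for H2-K1 at chr17:34000348-34000547 (minus strand), for H2-D1 at chr17:35262894-35263093 (plus strand) and for B2m at chr2:122147487-122147686 (plus strand). Capitals mark matches on either strand to 4 motifs, an NF-κB type site (GGG, any 2 bases, T, any 2 bases and CC), the core of an interferon-stimulated response element (AANNGAAAC), the core of an X2 or CRE site (TGACG) and a CCAAT box (CCAAT).
H2-K1: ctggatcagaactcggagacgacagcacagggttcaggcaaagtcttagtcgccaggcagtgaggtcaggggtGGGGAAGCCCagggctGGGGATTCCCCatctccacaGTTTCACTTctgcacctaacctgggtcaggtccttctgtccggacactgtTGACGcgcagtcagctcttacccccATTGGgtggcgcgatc
H2-D1: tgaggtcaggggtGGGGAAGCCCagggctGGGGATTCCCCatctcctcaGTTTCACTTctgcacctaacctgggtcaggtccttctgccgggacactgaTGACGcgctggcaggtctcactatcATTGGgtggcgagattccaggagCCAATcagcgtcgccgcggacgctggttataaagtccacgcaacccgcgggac
B2m: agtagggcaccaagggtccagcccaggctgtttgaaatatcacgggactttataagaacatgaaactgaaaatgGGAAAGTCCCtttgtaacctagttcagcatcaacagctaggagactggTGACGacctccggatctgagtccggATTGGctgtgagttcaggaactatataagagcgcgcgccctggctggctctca

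The stretches of H2-K1 and H2-D1 were alike where they overlap, with 128 of 140 aligned bases identical (91.4%), and both held all 4 motifs in the same order. The response element core lay 91 to 83 bases before the start in H2-K1 and 151 to 143 bases before it in H2-D1. In both genes GGGGATTCCC and GGGATTCCCC are 1 overlapping NF-κB type match. B2m held the NF-κB type site, TGACG and the CCAAT box. Of the 7 members with an entry in the promoter table, 3 held the NF-κB type site, 2 the response element core, 4 TGACG and 5 a CCAAT box. Over all 27025 genes of that table the shares for a stretch of this length were 13.4%, 3.79%, 15.8% and 30%. The motifs were chosen after these letters were seen, and H2-K1 and H2-D1 are alike, so the counts do not measure enrichment. A match describes letters and says nothing of binding. Outside the 3 printed stretches, Tap1 held TGACG 86 to 82 bases before its start, H2-T23 and Tapbp held a CCAAT box, and Erap1 held none of the 4 motifs. The RefSeq start of H2-D1 lies inside the GENCODE gene, whose first base is 35262730. Those of Tapbp, Erap1 and H2-T23 also lie inside their GENCODE genes. The Tapbp stretch ends at 33919477, and its gene begins at 33915899. The motif statements hold for the RefSeq starts only. Tap2, Tapbpl and Nlrc5 had no entry.

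The libraries held 10845868 reads on genes (control) and 10432287 (TSA), recovered from the deposited values, which are log2 of a normalized count plus 1. QuantSeq reads come from the 3′ end of each transcript, so read numbers depend little on transcript length. Each log2 fold change is the TSA value minus the control value as deposited, with an exact Clopper-Pearson 95% interval of the reads beside it. Intervals cover counting error only and compare 2 libraries, not 2 conditions. Here "higher" and "lower" name genes whose interval lay on 1 side of no change. The cells carried T cell markers, and Cd3e, Cd3d, Cd3g, Cd4, Lck and Thy1 summed to 14571 reads with DMSO and 16344 with TSA. The 10 genes summed to 69693 and 73645 reads, 0.643% and 0.706% of each library.

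Differences between the libraries were small for these genes and went both ways. H2-K1, H2-D1, Tapbp and Nlrc5 were higher with TSA, Tap1, Tapbpl and Erap1 were lower, and the intervals of B2m, Tap2 and H2-T23 held no change. Across all genes tested, 28.1% were higher and 28% lower by the same rule (23.4% and 36.5% of the 8188 genes with a mean normalized count of 100 or more, where 9 of the 10 lie). H2-K1, H2-D1, B2m, Tap1, Tap2 and Tapbp have a mean count of 1000 or more, where 20.7% of genes were higher and 54.9% lower. Of these, H2-K1, H2-D1 and Tapbp were higher and Tap1 lower. The counts of 4 and 3 in 10 are too small to say whether these genes stand apart from genes at their level. None of the 10 passed 2-fold, against 14.7% of all genes tested and 2.78% of those 8188 genes. The log2 fold changes ran from -0.60 (Tapbpl) to 0.59 (Nlrc5), with a median of 0.022, and the median of all genes tested was 0.015. At like levels the medians were below 0, at -0.058 for a mean count of 100 or more and -0.12 for 1000 or more. With reads scaled to library totals 7 of the 10 values were above 0 and 3 below, in place of 5 and 5, because B2m and Tap2 changed sign.

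**Figure D1:**
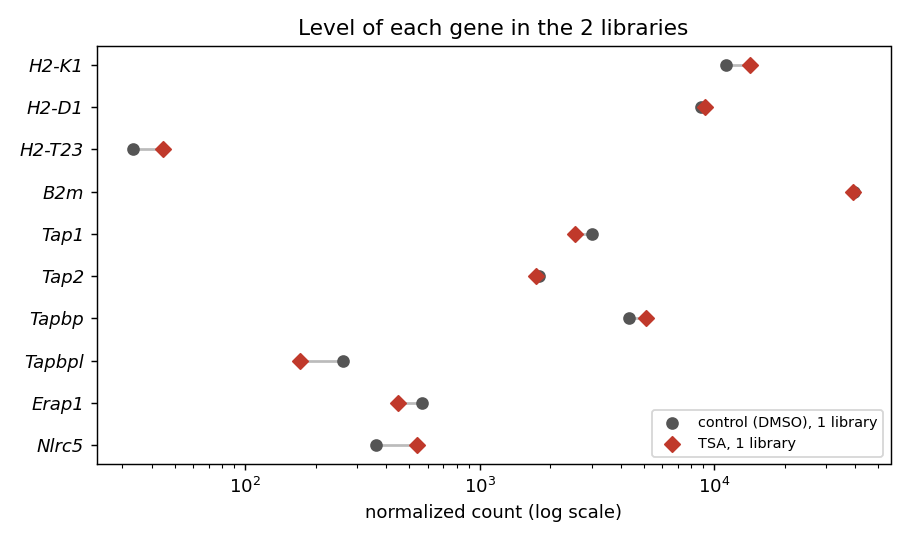
Normalized count of each of the 10 genes (log axis) in the control library (circle) and the TSA library (diamond), 1 library each. The levels span from about 33.2 for H2-T23 to about 39621 for B2m in the control library, and the 2 symbols lie close together for B2m, H2-D1 and Tap2.

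The 2 classical heavy chain genes were both abundant. H2-K1, which encodes the K heavy chain, had 11188 reads with DMSO and 14351 with TSA, for a log2 fold change of 0.34 (95% interval 0.31 to 0.38). Among the 2171 genes with a mean count of 1000 or more, 95.9% had a lower value, and their 5th and 95th percentiles were -0.54 and 0.31. H2-D1, the D heavy chain gene, had 8760 and 9216 reads, for a log2 fold change of 0.059 (0.017 to 0.10). As folds these are 1.27 (1.24 to 1.30) for H2-K1 and 1.04 (1.01 to 1.07) for H2-D1. Together they had 19948 and 23567 reads, for a log2 fold change of 0.23 (0.20 to 0.25).

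The share of H2-K1 within the reads of both heavy chains does not depend on how the libraries are scaled. It was 56.1% (55.4 to 56.8) with DMSO and 60.9% (60.3 to 61.5) with TSA. These intervals do not overlap, which is a statement on read sampling alone. Both genes lie on chromosome 17 in GRCm38 (GENCODE M21), H2-K1 from 33996017 to 34000347 and H2-D1 from 35262730 to 35267499, and are protein-coding genes with 8 exons in the transcript used. Read positions were not available, but the 3′ ends of the transcripts used differ between the genes. Over the last 500 nt of their transcripts 72.4% of the aligned bases were identical, and none of the 426 windows of 75 nt, the read length, stood in a transcript of another gene.

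B2m, on chromosome 2 from 122147686 to 122153083, encodes the light chain shared by all these molecules. It had the most reads of the 10, with 39423 with DMSO and 39375 with TSA, for a log2 fold change of -0.016 (-0.036 to 0.0042). Its levels differed by less than counting error, but scaling by library totals gave 0.054, above its interval. Patl2, which overlaps its end on the other strand, had 0 reads in both libraries. B2m had 1.98 reads per read of H2-K1 and H2-D1 together with DMSO and 1.67 with TSA, a ratio of ratios of 0.845 (0.826 to 0.865, normal approximation on the log scale).

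H2-T23 encodes Qa-1, a nonclassical heavy chain recognised by inhibitory receptors of the NKG2 family. It rested on 33 reads with DMSO and 45 with TSA, for a log2 fold change of 0.42 with an interval of -0.25 to 1.13, so no difference was detectable at this depth. Of the windows in the last 500 nt of its transcript, 85 of 426 also stood in transcripts of other genes, most often Rab33b (53 windows). How the authors treated reads with several matches is not given in the sources used here, so the low level of H2-T23 is uncertain. Its end also overlaps A930015D03Rik on the other strand, which had 3 and 9 reads.

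**Figure D2:**
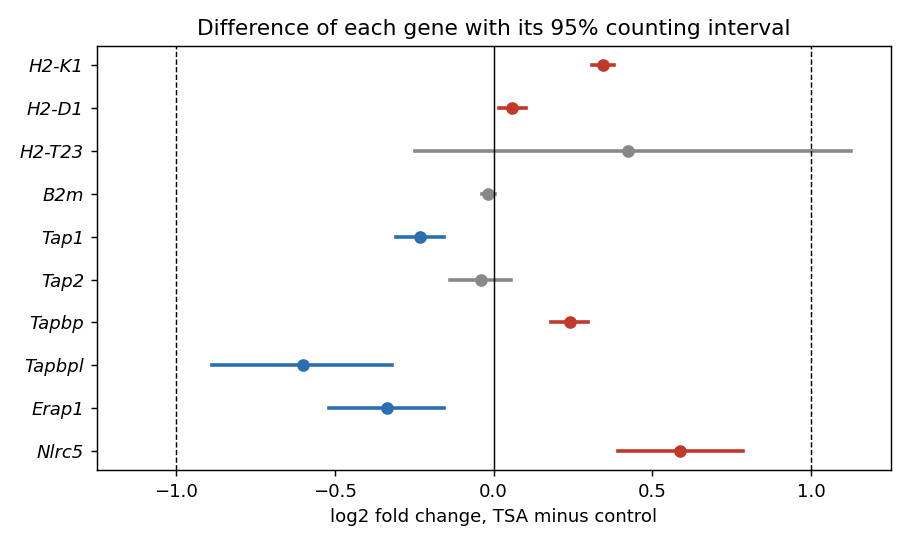
Log2 fold change (TSA minus control) of each gene with its exact 95% counting interval. Red marks intervals above 0, blue intervals below 0 and grey intervals that hold 0, and dashed lines mark 2-fold. No point reaches a dashed line, and the interval of H2-T23 (33 and 45 reads) is the widest.

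The transporter subunits differed in part. Tap1 had 2989 reads with DMSO and 2570 with TSA, for a log2 fold change of -0.23 (-0.31 to -0.16). For Tap2 the reads were 1787 and 1754, for a log2 fold change of -0.041 (-0.14 to 0.055). TAP is a dimer of both proteins, and the share of Tap1 within the reads of both genes was 62.6% (61.2 to 64.0) with DMSO and 59.4% (58.0 to 60.9) with TSA. Tap1 (34187553 to 34197225) and Tap2 (34203527 to 34216321) lie near each other on chromosome 17. Psmb9, an immunoproteasome subunit gene, shares a promoter region with Tap1 and is transcribed away from it. The share of Tap1 within the reads of these 2 genes was 66.0% (64.6 to 67.4) with DMSO and 58.5% (57.1 to 60.0) with TSA, so this pair of genes did not keep its ratio.

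Tapasin and its relative went in opposite directions. Tapbp, which encodes tapasin, had 4331 reads with DMSO and 5166 with TSA, for a log2 fold change of 0.24 (0.18 to 0.30). Tapbpl encodes TAPBPR, a peptide editor that acts apart from the transporter, and had 260 and 173 reads, for a log2 fold change of -0.60 (-0.89 to -0.32). This was the most negative value of the 10, and 6.35% of the 6017 genes with a mean count from 100 to 1000 had a lower one. The share of Tapbpl within the reads of both genes was 5.66% (5.01 to 6.37) with DMSO and 3.24% (2.78 to 3.75) with TSA. Tapbp lies on chromosome 17 from 33915899 to 33929292 and Tapbpl on chromosome 6 from 125223933 to 125231860. The end of Tapbpl overlaps Vamp1 on the other strand (70 and 90 reads), and 32 of its 426 windows stood in other genes' transcripts.

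Erap1 encodes the aminopeptidase that trims peptides in the endoplasmic reticulum. It had 563 reads with DMSO and 450 with TSA, for a log2 fold change of -0.34 (-0.52 to -0.16). Its end, on chromosome 13 (gene from 74639568 to 74693201), overlaps Cast on the other strand, which had 602 and 643 reads, and whether the counting used strand is not given in the sources used here. Nlrc5, the activator, had 359 reads with DMSO and 545 with TSA, the largest log2 fold change of the 10 at 0.59 (0.39 to 0.78). It lies on chromosome 8 from 94434356 to 94527272, and 92.1% of the genes with a mean count from 100 to 1000 had a lower value. With a 1.5-fold threshold Nlrc5 and Tapbpl passed, 2 of 10, against 27.1% of all genes tested and 11.9% of those with a mean of 100 or more.

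**Figure D3:**
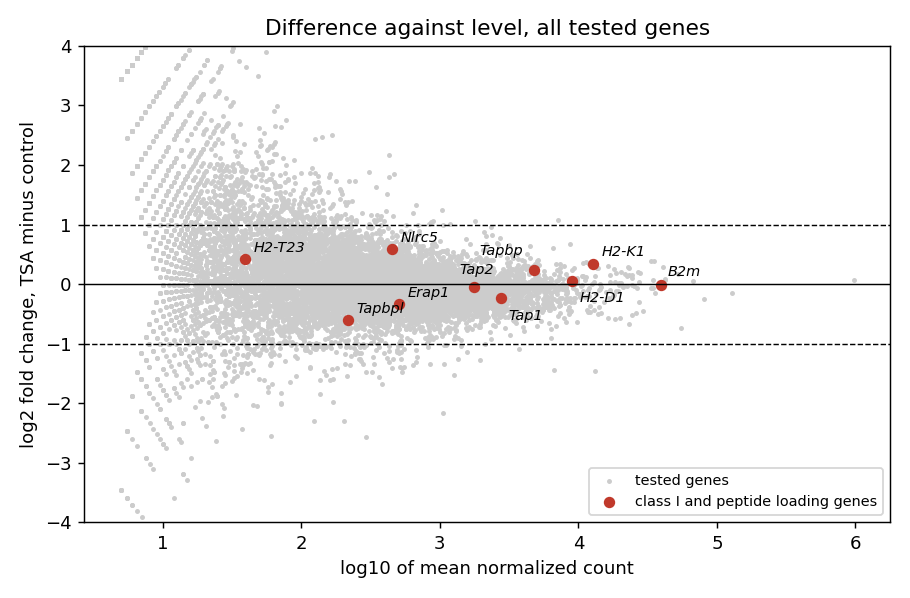
Log2 fold change (TSA minus control) of each tested gene against the log10 of its mean normalized count, with the 10 genes in red and dashed lines at 2-fold. The 10 genes lie inside the cloud of the 12164 tested genes, of which 127 fall outside the plotted range.

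Among other class I heavy chain genes, a list of 15, 5 had enough reads to be tested. H2-T22 had 789 and 1131 reads (log2 fold change 0.51, 0.37 to 0.64, above 90.0% of the genes with a mean count from 100 to 1000), H2-T9 had 770 and 1118, and H2-T10 had 402 and 573. These 3 nonclassical genes were higher in the TSA library, 3 of the 5 tested against 28.1% of all genes tested and 23.4% of those with a mean of 100 or more, but the counts of H2-T10 and H2-T22 may not be independent. H2-T10 is annotated as a polymorphic pseudogene. The last 500 nt of H2-T10 and H2-T22 were 98.8% identical, and 168 of the 426 windows of H2-T10 stood in a transcript of H2-T22, so reads may have been split between them or counted for both. H2-T9 had no entry under that symbol in the annotation used, so whether it shares reads with them was not tested. H2-T24 had 241 and 213 reads, with an interval that held no change (-0.47 to 0.080). Chosen after their values were seen, the Q-region genes H2-Q4 (4 and 4 reads), H2-Q6 (0 and 0) and H2-Q7 (0 and 9) had fewer than 10 reads in each library and were not tested. A count of 0 allows up to 3 reads. Of 5 class I-like genes, Cd1d1 (17 and 27 reads) and Mr1 (32 and 24) could be tested, and both intervals held no change.

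The chaperones that fold class I heavy chains were mostly lower in the TSA library, 5 of 7, and 1 was higher (Prkcsh, 1402 and 1573 reads, chosen after its value was seen). Their median was -0.20 on the log2 scale. They are general folding factors of the endoplasmic reticulum. Hspa5, which encodes BiP, had 12781 and 11229 reads, for a log2 fold change of -0.20 (-0.24 to -0.16). Calreticulin (Calr) had 8827 and 7439 reads (-0.26), calnexin (Canx) 5340 and 4106 (-0.39), and Pdia3, which joins the loading complex with tapasin, 2976 and 2559 (-0.23). Genes at this level were often lower: 54.9% of the genes with a mean count of 1000 or more were lower and 20.7% higher by this rule, and their median was -0.12.

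Peptide production was split. In the immunoproteasome list Psmb8 (3489 and 3752 reads, log2 fold change 0.091, 0.024 to 0.16) and Psmb9 (1538 and 1821, 0.23, 0.13 to 0.33) were higher. Psme1, a subunit of the PA28 activator, was lower (5133 and 3831, -0.44), and Psme2 (1547 and 1504) and Psmb10 (563 and 533) had intervals that held no change. Of the subunits that these replace in the standard proteasome, Psmb7 (2296 and 1685, -0.46) and Psmb6 (2638 and 2451, -0.12) were lower. Psmb5 (2822 and 2772) had an interval that held no change. The interval of Psmb6 reached -0.040, and scaling to library totals moved the median of all tested genes by 0.070. All the genes of both lists except Psmb10 have a mean count of 1000 or more, where 54.9% of genes were lower and 20.7% higher. Each immunoproteasome subunit had more reads per read of its standard counterpart with TSA than with DMSO. The ratio of these ratios was 1.09 (1.02 to 1.17) for Psmb8 over Psmb5, 1.27 (1.17 to 1.39) for Psmb9 over Psmb6 and 1.29 (1.13 to 1.48) for Psmb10 over Psmb7. It does not depend on scaling, and these pairs and Psmb10 were chosen with the values known. Of 6 peptidases 5 were lower, against 28% of all genes tested and 36.5% of those with a mean of 100 or more, and their median was -0.29. Among them were Tpp2 (1371 and 1138 reads), Blmh (1518 and 1280) and Lap3 (1010 and 546, -0.90). Npepps, the puromycin-sensitive aminopeptidase, had 936 and 1030 reads and an interval that held no change. Lnpep, an endosomal aminopeptidase related to Erap1, was the single gene past 2-fold, with 168 and 64 reads and a log2 fold change of -1.39 (-1.85 to -0.98).

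**Figure D4:**
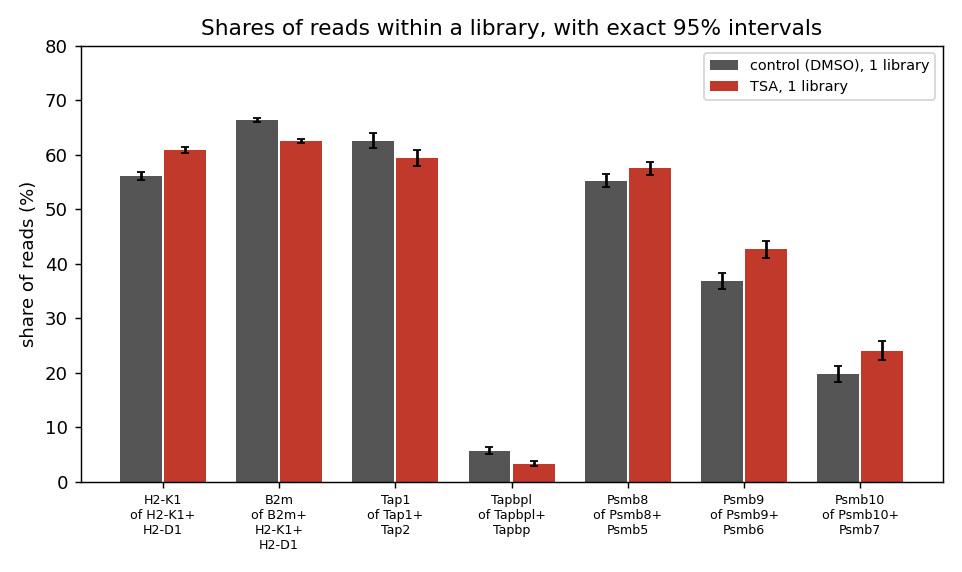
Share of reads (percent) of the first gene within the reads of each named set, in the control library (grey) and the TSA library (red), with exact 95% binomial intervals. The share was larger in the TSA library for H2-K1 and for the 3 immunoproteasome subunits, and smaller for B2m, Tap1 and Tapbpl.

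Among 12 factors that act at class I promoters, 3 were higher and 4 lower, shares near the 28.1% and 28% of all genes tested, and the median was 0.0010 on the log2 scale. Irf1, an interferon-induced activator of class I genes, had 5208 and 8028 reads, for a log2 fold change of 0.61 (0.56 to 0.66), and 99.1% of the genes with a mean count of 1000 or more had a lower value. The other 2 higher factors, named after their values were seen, were Rfx5 (135 and 203 reads, 0.57) and Rfxank (99 and 156, 0.64), subunits of the RFX complex to which NLRC5 binds. The third subunit, Rfxap, also named afterwards, had 225 and 188 reads and an interval that held no change (-0.56 to 0.012). Nfkb1 (1805 and 1658 reads, -0.14) was lower, as were Nfyc (-0.43), Atf1 (-0.40) and Nfya (-0.25), also named after their values were seen, and Nfyb (1766 and 1826) and Creb1 (1573 and 1577) had intervals that held no change.

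Of 13 interferon response genes, 7 were higher and 2 lower (28.1% and 28% of all genes tested), and the median was 0.27 on the log2 scale. Ifi47 (6671 and 8140 reads, 0.27), Igtp (4358 and 5832, 0.41) and Gbp2 (1703 and 3037, 0.82), which encode interferon-inducible GTPases, were higher. Bst2, among the 2 lower genes and named after its values were seen, had 343 and 236 reads (-0.55, -0.80 to -0.31). The intervals of Isg15 (48 and 31 reads), Ifit3 (38 and 27), Ifit1 (60 and 78) and Irf7 (16 and 24), also named afterwards, held no change. Usp18 passed 2-fold (48 and 101 reads, log2 fold change 1.04, 0.55 to 1.59), but its mean count is under 100, a range in which 32.2% of the 3976 genes tested passed 2-fold upward and 68.5% had a lower value than Usp18. In the list of interferons and their receptors, Ifng had 139 and 163 reads with an interval that held no change (-0.12 to 0.55), and Ifnb1, named after its values were seen, had 0 in both. Of the 5 tested genes of this list 2 were higher and none lower. Ifngr1 had 229 and 288 reads (0.31) and Ifngr2, also named afterwards, 92 and 144 (0.63, 0.24 to 1.03), and Ifnar1 (218 and 248) and Ifnar2 (455 and 454) had intervals that held no change.

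**Figure D5:**
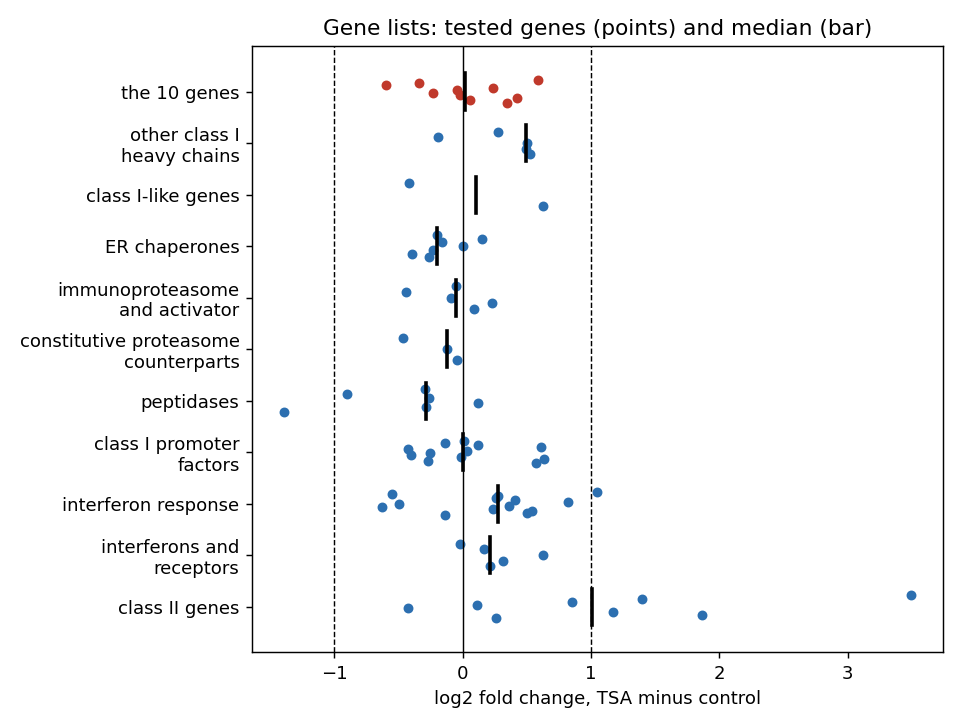
Log2 fold change (TSA minus control) of the tested genes of each list (points), with the list's median (black bar) and dashed lines at 2-fold. The medians run from -0.29 for the peptidases to 1.01 for the class II genes, and that of the 10 genes is 0.022.

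Of the MHC class II genes, which had 859 reads in all with DMSO and 1227 with TSA, 4 of the 8 tested passed 2-fold, all higher in the TSA library, against 11.5% of all genes tested. These 4 have mean counts under 100, where 32.2% of the 3976 genes tested passed 2-fold upward, the median was 0.46 and the 95th percentile 3.79, so the background for genes so low is high. H2-Ab1, the β chain of I-A, had 42 and 157 reads, for a log2 fold change of 1.86 (1.39 to 2.42), above 83.1% of those genes. H2-Eb1 had 57 and 131 reads (1.17), H2-Oa 28 and 76 (1.40), and H2-Ob 7 and 90 (3.49, above 93.0%). The invariant chain gene Cd74, in contrast, was lower (113 and 85 reads, -0.42), but its interval (-0.85 to -0.0062) came close to no change. Scaling to library totals moved the median of all tested genes by 0.070, more than that margin. H2-DMa (550 and 599) had an interval that held no change, as did H2-Aa (52 and 63), the α chain of I-A, named after its values were seen. Ciita, the class II activator related to NLRC5, named after its values were seen, had 0 and 7 reads, too few to be tested. Antigen-presenting cells carry much class II, and their markers were few in both libraries. Of the B cell markers, Cd79a had 1 and 5 reads, Cd79b 11 and 4 and Ms4a1 0 and 5. The 5 myeloid markers (Lyz2, Itgam, Csf1r, Cd68, Adgre1) summed to 58 and 40 reads, with Adgre1 at 0 in the TSA library. The 4 dendritic cell markers (Itgax, Flt3, Xcr1, Siglech) summed to 13 and 39 reads, of which Flt3 had 0 and 33, while Siglech was at 0 in both and Itgax at 0 with TSA. The part of other cells in the class II values was not tested. The 3 NK cell markers summed to 0 and 3 reads, 2 CD8 T cell markers to 80 and 87, 2 erythroid markers to 32 and 45 and 2 platelet markers to 26 and 35.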

How the data were processed

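RNA of 1 control and 1 TSA culture was sequenced from QuantSeq 3′ libraries as single-end 75-nt reads. The submitters' processing notes name Bowtie2, bedtools and mm10. The paper names ExDEGA, and the counting annotation, strand setting and scaling are not given in the sources used here. The authors deposited log2 values, each log2 of a normalized count plus 1, rounded to 3 decimals. On the linear scale 1 read was worth 1.005 (control) or 0.99515 (TSA), and 99.7% and 99.8% of the values with 1 to 300 reads lay within 0.1 of a whole number. Rounding leaves a count of an abundant gene uncertain by 0.0347%. With 1 library per condition no p-value was computed. The authors' 2-fold threshold was used, and the interval rule beside it. A floor of 3 reads limits what a count of 0 allows, and PCR copies could not be told apart.

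Named genes are the 10 members and, of each list, the 4 with the highest mean normalized count and any past 2-fold. Others are named as chosen later. A gene that the rule names and a cell marker are not reported here. The members, lists and pairs of genes were chosen with earlier results of these data known, and the motifs after the promoter letters were seen. Transcript ends and positions came from GENCODE M21 (GRCm38, the build of mm10), using the APPRIS principal transcript where marked and otherwise the longest coding one, and promoters from RefSeq. Alternatives covered scaling, pseudocount, read filter and threshold. Steps were tested on simulated data. Python 3.11.15, numpy 2.4.6, pandas 2.3.3, scipy 1.17.1, matplotlib 3.10.9 and biopython 1.88 were used.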

Additional observations from a re-analysis of the deposited data

How the results depend on the processing

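No paired analysis was possible because each arm held a single library, and leaving out a replicate was not possible either. The median log2 fold change of the 10 genes was 0.092 with total reads and 0.11 with total reads without Rn45s, the precursor of ribosomal RNA, in place of 0.022. With either of these or with the upper quartile, 3 of the 10 genes were below 0 in place of 5, and by the interval B2m joined the higher genes, which made 5 higher and 3 lower. The summed H2-K1 and H2-D1 reads had a log2 fold change of 0.30, 0.31 and 0.27 with these scalings. Median-of-ratios and trimmed-mean scaling and pseudocounts of 0.1 and 5 kept the sign of all 10 genes. The median of the immunoproteasome list was above 0 with total reads (0.015), and that of the promoter factors below 0 with median-of-ratios scaling (-0.0015). Total reads moved the median of all tested genes by 0.070. At 1.5-fold 2 of the 10 genes passed, and by the interval 7. The number of all genes past the threshold was 4017 without a filter, 747 with at least 10 reads in both libraries, 419 with a mean count of 50 or more, 3293 at 1.5-fold and 6822 by the interval. Without a filter the median of the other class I heavy chain genes was 0, because most had few reads. Of the 10 genes, H2-T23 (33 and 45 reads) had the widest interval.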
